A study of Mus musculus with 12 samples.

Results

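The genes described here are 10 transcripts of neutrophils and of the signals that draw them into tissue: S100a8, S100a9, Cxcr2, Csf3r, Csf3, Cxcl1, Cxcl2, Cxcl3, Cxcl5 and Il1b. They were chosen by gene symbol, with earlier results of these data known, and all 10 were found among the 18211 genes measured. RNA from whole MC38 tumors was sequenced in 12 tumors, 3 in each of 4 groups. MC38 is a mouse colorectal adenocarcinoma line, and its cells had been placed under the skin of female C57BL/6 mice aged 5 weeks. On day 7 the mice were randomised to 4 arms: CK (vehicle), PB-020 (an inhibitor of the growth factor receptor IGF-1R, by oral gavage at 50 mg/kg per day in DMSO and corn oil), anti-PD-1 (the antibody RMP1-14 against the T cell checkpoint receptor PD-1, 200 μg per mouse into the peritoneum on days 9, 12, 15 and 18) and PB-020+anti-PD-1 (both). Whether CK or PB-020 mice received a control antibody is not given in the sources used here, and all mice carried the same transplanted line.

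Neutrophils are short-lived white blood cells that are made in the bone marrow and leave it under the control of granulocyte colony-stimulating factor (G-CSF, the product of Csf3) and its receptor Csf3r. They enter tissue by following chemokines with an ELR motif, among them the products of Cxcl1, Cxcl2, Cxcl3 and Cxcl5, which bind the receptor Cxcr2. Interleukin-1β, the product of Il1b, is made by macrophages, monocytes and neutrophils and induces both Csf3 and these chemokines in stromal, epithelial and myeloid cells. In transplanted tumors, neutrophils and related myeloid cells are known for variable numbers from tumor to tumor.

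Depth was nearly even, with 16545394 to 17217035 estimated counts per library (16732304 in CK tumor 3). In these whole-tumor libraries, fewer cells of a type and less RNA per cell cannot be told apart. Of 8 markers of colon epithelium, 6 (Epcam, Krt8, Krt18, Krt19, Cdx2 and Vil1) did not exceed 0.54 FPKM in any tumor, where FPKM is the fragment count scaled for transcript length and library size. Only Cdh1 (1.59 to 3.96 FPKM) and Lgals4 (4.3 to 8.04 FPKM) of that list were expressed more highly, so the epithelial markers of the tissue of origin were nearly absent from these MC38 tumors. The neutrophil surface antigen Ly6g was at 0.8 FPKM in CK tumor 3 and at 0 to 0.08 FPKM in the other 11 tumors. Of the primary granule genes that are transcribed in bone marrow precursors, Mpo, Elane and Prtn3 were at 0 to 0.14 FPKM in all 12 tumors. Ctsg, another primary granule gene, was higher, at 0.07 to 2.72 FPKM, with 1.62 FPKM in CK tumor 3. The library of CK tumor 3 stood apart for the genes described here, and the comparisons between groups below are therefore given with and without it. It was singled out after its values were seen. Leaving it out moves the changes against CK upward for the genes it leads. The p-values without it are therefore given as a description.

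S100a8 and S100a9 encode the subunits of calprotectin, the most abundant cytosolic protein complex of neutrophils, which is also made by monocytes. In the 3 CK tumors the S100a8 level was 2.6, 2.42 and 163 FPKM, in the PB-020 tumors 2.69, 11.99 and 9.33 FPKM, in the anti-PD-1 tumors 2.8, 4.3 and 8.73 FPKM, with PB-020+anti-PD-1 1.76, 12.4 and 4.86 FPKM. Its partner S100a9 was at 2.49, 2.67 and 211 FPKM in CK, at 2.24, 9.83 and 5.28 FPKM in PB-020, at 2.46, 3.46 and 9.94 FPKM in anti-PD-1, and at 1.47, 13.5 and 5.41 FPKM in PB-020+anti-PD-1. Both genes were therefore highest by far in CK tumor 3, while CK tumors 1 and 2 lay among the lower values. For S100a9 those 2 tumors fell within the range of all 3 treated groups, and for S100a8 within that of the combination and just below the lowest PB-020 and anti-PD-1 tumors. The S100a9 level of CK tumor 3 was 81.9-fold the mean of CK tumors 1 and 2 and 15.6-fold the next highest tumor, and the S100a8 level was 65.0-fold and 13.1-fold.

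The 2 genes lie side by side on chromosome 3, S100a8 at chr3:90669071-90670034 on the + strand and S100a9 at chr3:90692630-90695721 on the - strand (GRCm38.p6). None of the stretches of 50 bases in the S100a8 and S100a9 transcripts occurred in a transcript of another gene, so reads of the 2 genes could be told apart.

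**Figure D1:**
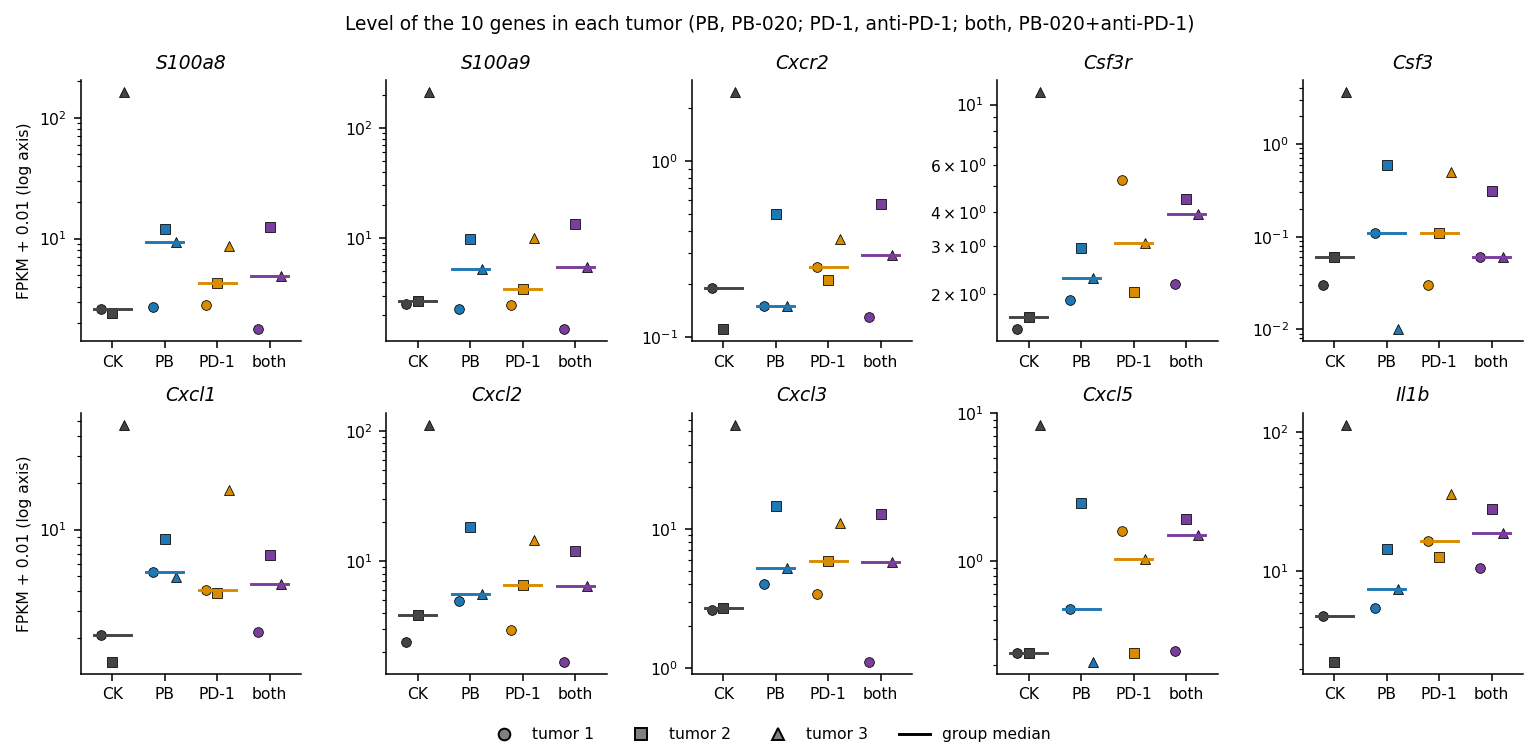
Level of each of the 10 genes in each of the 12 tumors, in FPKM plus 0.01 on a log axis, with the number of the tumor given by the shape of the point and the group median by a line. CK tumor 3, the dark triangle, was the highest of the 12 tumors in all 10 panels, and CK tumors 1 and 2 were among the lower points.

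Both receptors were expressed at lower levels. Cxcr2 (chr1:74153994-74161246), the receptor for the ELR chemokines, was at 0.18, 0.1 and 2.46 FPKM in CK, at 0.14, 0.49 and 0.14 FPKM in PB-020, at 0.24, 0.2 and 0.35 FPKM in anti-PD-1, and at 0.12, 0.56 and 0.28 FPKM in PB-020+anti-PD-1. CK tumor 3 was again alone at the top, at 17.6-fold the mean of CK tumors 1 and 2, and the other 11 tumors overlapped whatever their treatment. That ratio is imprecise, since CK tumors 1 and 2 held 8.73 and 5.03 estimated counts of Cxcr2. The G-CSF receptor gene Csf3r (chr4:126023441-126044975) had a level of 1.47, 1.64 and 11.1 FPKM in CK, 1.89, 2.95 and 2.28 FPKM in PB-020, 5.26, 2.03 and 3.07 FPKM in anti-PD-1, and 2.17, 4.49 and 3.93 FPKM in PB-020+anti-PD-1. Here CK tumor 3 was 7.14-fold the mean of CK tumors 1 and 2, the smallest such ratio among the genes described here, and CK tumors 1 and 2 lay below all 9 treated tumors. Anti-PD-1 tumor 1, where S100a8 and S100a9 were lowest of that group, was second highest for Csf3r.

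Csf3 (chr11:98700183-98703631), which encodes the growth factor G-CSF, was close to the limit of detection outside CK tumor 3. Its level was 0.02, 0.05 and 3.61 FPKM in CK, 0.1, 0.59 and 0 FPKM in PB-020, 0.02, 0.1 and 0.49 FPKM in anti-PD-1, and 0.05, 0.3 and 0.05 FPKM in PB-020+anti-PD-1. CK tumor 3 held 75 counts of Csf3, the other 11 tumors held 0 to 13, and CK tumors 1 and 2 held 1 count each, so no fold is given. A library with 0 counts, here PB-020 tumor 3, allows up to 3 counts (0.177 CPM, counts scaled to library size, at the depth of that tumor, counting error only).

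The 4 chemokine genes lie in 1 cluster on chromosome 5, Cxcl5 at chr5:90759298-90761625, Cxcl3 at chr5:90786101-90788093, Cxcl1 at chr5:90891245-90893121 and Cxcl2 at chr5:90903899-90905938, all on the + strand. In the 250 bases before the annotated start, taken from the RefSeq promoter table (GRCm38.p6), which held 8 of the genes described here, the longest run of bases shared by Cxcl1, Cxcl2 and Cxcl3 was GGGAATTTCCC, a sequence of the NF-κB type. It was picked from these 3 promoters and so describes them. On either strand it occurred in 14 of all 32851 promoters of the table (0.0426%), and in none of the other 5 genes. These 3 genes moved together across the tumors, but so did the other genes described here. Without CK tumor 3, Pearson's r of log2 CPM for Cxcl2 was 0.97 with Cxcl3, 0.83 with Cxcl1 and 0.92 with S100a9. A part of the shared run in this was not tested. The 110 bases before their starts are printed with the shared run in capitals.
Cxcl1 (chr5:90891135-90891244, + strand): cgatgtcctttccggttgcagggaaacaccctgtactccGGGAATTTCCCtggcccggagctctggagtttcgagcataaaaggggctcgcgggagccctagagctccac
Cxcl2 (chr5:90903789-90903898, + strand): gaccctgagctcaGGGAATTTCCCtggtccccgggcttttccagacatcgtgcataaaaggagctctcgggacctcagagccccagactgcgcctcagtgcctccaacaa
Cxcl3 (chr5:90785991-90786100, + strand): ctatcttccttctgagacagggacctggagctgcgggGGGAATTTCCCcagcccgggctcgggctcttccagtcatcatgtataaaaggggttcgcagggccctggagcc
The run lies on the + strand and starts 71 bases before the start in Cxcl1, 97 in Cxcl2 and 73 in Cxcl3. Between Cxcl1 and Cxcl2 the identical stretch around it was 14 bases long, and 11 between Cxcl3 and either of them. Of 3 further motifs searched on both strands, TATAAA was found in 3 of the 8 windows (S100a8 and Cxcl3, 30 bases before the start, and Il1b, 31 bases; 12.4% of all promoters), TTGCNNAA in that of S100a9 alone (9.56% of all promoters), and TGANTCA in none (6.75% of all promoters). These matches describe the letters of the windows and were set against no measurement of binding.

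Cxcl1, a main mouse ligand of Cxcr2, was at 2.09, 1.39 and 47.5 FPKM in CK, at 5.3, 8.68 and 4.92 FPKM in PB-020, at 4.06, 3.87 and 18.1 FPKM in anti-PD-1, and at 2.16, 6.86 and 4.47 FPKM in PB-020+anti-PD-1. Cxcl2, which macrophages and neutrophils themselves release, was at 2.36, 3.85 and 111 FPKM in CK, at 4.95, 18.1 and 5.57 FPKM in PB-020, at 2.95, 6.49 and 14.5 FPKM in anti-PD-1, and at 1.67, 11.9 and 6.44 FPKM in PB-020+anti-PD-1. For Cxcl1, CK tumors 1 and 2 were the lowest of all 12 tumors, whereas for Cxcl2 a combination tumor was lower still. CK tumor 3 was 27.3-fold the mean of CK tumors 1 and 2 for Cxcl1 and 35.8-fold for Cxcl2.

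The third ligand gene, Cxcl3, was at 2.6, 2.71 and 55.8 FPKM in CK, at 4.02, 14.7 and 5.24 FPKM in PB-020, at 3.37, 5.89 and 11.1 FPKM in anti-PD-1, and at 1.1, 12.7 and 5.77 FPKM in PB-020+anti-PD-1. Cxcl5, a ligand made largely by epithelial and stromal cells, was at 0.23, 0.23 and 8.33 FPKM in CK, at 0.47, 2.47 and 0.2 FPKM in PB-020, at 1.6, 0.23 and 1.02 FPKM in anti-PD-1, and at 0.24, 1.92 and 1.49 FPKM in PB-020+anti-PD-1. CK tumor 3 again exceeded every other tumor, and the ranges of the 3 treated groups overlapped. Cxcl2 and Cxcl3 shared 61 stretches of 50 bases, 3.37% of those of the Cxcl2 transcript and 6.31% of those of the Cxcl3 transcript, so a small share of reads could have been divided between these 2 genes by the quantification.

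Il1b (chr2:129364569-129371164) had a level of 4.81, 2.24 and 112 FPKM in CK, 5.45, 14.4 and 7.43 FPKM in PB-020, 16.4, 12.7 and 35.9 FPKM in anti-PD-1, and 10.5, 28.2 and 18.9 FPKM in PB-020+anti-PD-1. The 6 tumors that had received the antibody lay above CK tumors 1 and 2 and overlapped the PB-020 tumors, and CK tumor 3 was above them all. It was at 31.9-fold the mean of CK tumors 1 and 2 and 3.13-fold the next highest tumor.

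CK tumor 3 was thus the highest of the 12 tumors for 10 of the 10 genes, where 10.5% of all genes tested (1424 of 13563) had their highest value in that tumor. It exceeded the mean of CK tumors 1 and 2, taken in log2 CPM, by more than 4-fold in 67 genes (0.494% of all tested). It exceeded every other tumor by more than 2-fold in 43 genes (0.317%), and all 10 genes described here were among those 43. S100a9 had the widest gap to the next tumor of any gene tested, a log2 difference of 3.87 in CPM. Csf3r, the last of the 10, was number 38 in that order, with a log2 gap of 1.15.

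Spread within a group was wide for these genes in the treated groups as well. One tumor led for nearly all genes in each group: PB-020 tumor 2 was the highest of its group for 10 of the 10 genes, PB-020+anti-PD-1 tumor 2 for 10, and anti-PD-1 tumor 3 for 8, the exceptions being Csf3r and Cxcl5, which were highest in anti-PD-1 tumor 1. Among the 9 genes with more than 3 counts in every tumor, the highest tumor of a group exceeded the lowest by a median of 36.2-fold in CK (7.56 to 84.9), 3.65-fold in PB-020 (1.56 to 12.3), 3.28-fold in anti-PD-1 (1.75 to 6.96) and 7.05-fold in PB-020+anti-PD-1 (2.07 to 11.5). Ranked from 1 (highest) to 12 over the tumors, the median rank over the 10 genes was 3 in PB-020 tumor 2, 3 in PB-020+anti-PD-1 tumor 2 and 3.5 in anti-PD-1 tumor 3. The lowest median ranks were those of CK tumor 1 (11), CK tumor 2 (10.5) and PB-020+anti-PD-1 tumor 1 (10.5).

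The standard deviation (SD) of log2 CPM within groups, pooled over the 4 groups, had a median of 1.66 over the 10 genes and of 0.134 over all genes tested. S100a9 was the most variable at 2.06 (number 17 of 13563) and Csf3r the least at 0.95 (number 213). Without CK tumor 3 the pooled SD remained at a median of 1.01 over the 10 genes against 0.134 over all genes, with Cxcl5 the most variable at 1.35 (number 88) and Csf3r the least at 0.51 (number 935). Cxcl5 held as few as 5 counts in a tumor and Csf3r at least 82, so counting error enters the SD of Cxcl5 more. The same holds for Csf3, Cxcr2, S100a8 and S100a9, each with under 10 counts in at least 1 tumor. The ranks are over genes of all levels. The largest SD of a treated group was 1.73, that of Cxcl3 in PB-020+anti-PD-1, and the smallest was 0.31, that of Csf3r in PB-020.

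**Figure D2:**
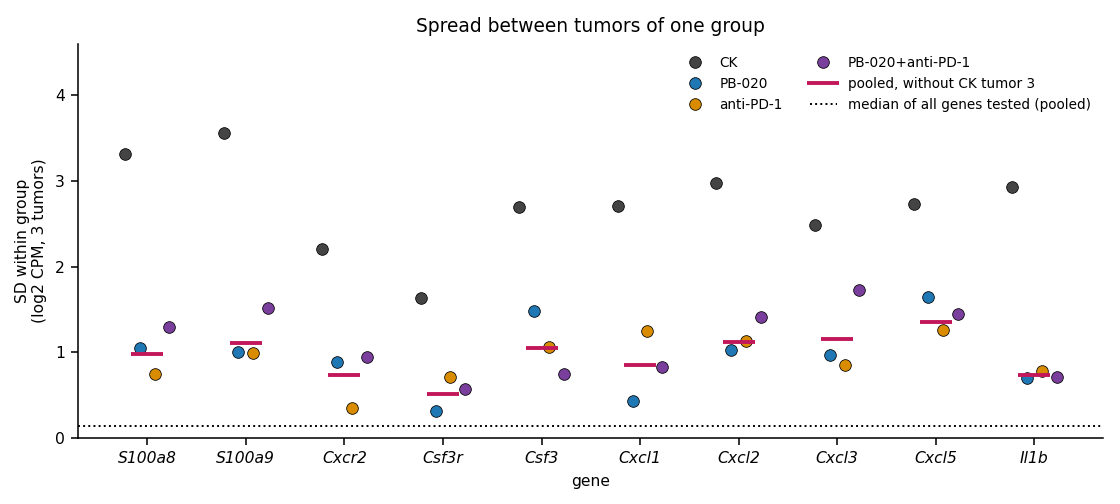
SD of log2 CPM over the 3 tumors of each group for each gene, with the pooled SD without CK tumor 3 as a bar and the median pooled SD of all genes tested as a dotted line. The CK points reach 3.56 for S100a9, and every point lies above the dotted line at 0.134.

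Each treatment was compared with CK to ask whether the drug or the antibody changed these genes. With edgeR's quasi-likelihood test across all 13563 genes, 0 of the 10 genes passed an adjusted p of 0.05 for PB-020 against CK, where 0% of all genes passed, and 0 of the 10 for anti-PD-1 against CK, where 8.26% passed. For PB-020+anti-PD-1 against CK 0 of the 10 passed, where 17.9% of all genes did. At an unadjusted p under 0.05 the count of the 10 genes was also 0 in these 3 comparisons with edgeR, against 5.46%, 26.6% and 33.9% of all genes. DESeq2 with all 12 tumors gave no p for S100a8, S100a9 and Csf3 in any comparison, because its filter on outlying counts set them aside, and of the other 7 genes it called 0, also at an unadjusted p under 0.05. The 3 comparisons share the CK tumors, so they are not independent of each other.

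All 10 fitted log2 changes were below 0 in these 3 comparisons, with medians of -1.89 for PB-020, -1.66 for anti-PD-1 and -1.74 for the combination. Of all genes tested, 51.3%, 49.9% and 50.4% were below 0, with medians of -0.0038, 0.00047 and -0.0026. For S100a9 the log2 change was -3.61 (SE 1.68, adjusted p = 0.87) for PB-020, -3.72 (SE 1.69, adjusted p = 0.20) for anti-PD-1 and -3.36 (SE 1.65, adjusted p = 0.19) for the combination. Il1b had values of -2.09 (SE 1.27), -0.84 (SE 1.19) and -1.02 (SE 1.20), and Cxcl3 of -1.32 (SE 1.27), -1.55 (SE 1.28) and -1.61 (SE 1.29). The standard errors of these values reached 1.69. The S100a9 changes were larger than the pooled within-group SD of 2.06, but with 3 tumors a group none of the changes of the 10 genes passed the test.

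Without CK tumor 3, which left 2 CK tumors, all 10 log2 changes were above 0 in the same 3 comparisons, with medians of 1.61, 1.37 and 1.37, while 51.2%, 49.8% and 48.9% of all genes were below 0. Under this setting 0 of the 10 genes passed an adjusted p of 0.05 in edgeR for PB-020 (0% of all genes), anti-PD-1 (4.65%) or the combination (11.5%). Unadjusted p-values were under 0.05 for Il1b, Csf3r and Cxcl1 with anti-PD-1 (3 of 10, where 23.4% of all genes were), for Il1b and Csf3r with the combination (2 of 10, against 29.9%), and for 0 of 10 with PB-020 (4.52%). Leaving out CK tumor 3, the highest tumor for all 10 genes, moves their changes upward. The shares of all genes are therefore not a like background for these counts. DESeq2, run on the same 11 tumors, gave a p for all 10 genes and called those 3 genes with anti-PD-1 (9.29% of all genes) and those 2 with the combination (15.5%). For PB-020 it called 0, with 4 of the 10 (Il1b, S100a8, Cxcl5 and Cxcl1) at an unadjusted p under 0.05, where 3.87% of all genes were. Il1b had a log2 change of 2.58 (SE 0.73, edgeR adjusted p = 0.089) with anti-PD-1 and 2.40 (SE 0.73, adjusted p = 0.074) with the combination. For Cxcl1 the log2 change was 2.33 (SE 0.83, adjusted p = 0.14) with anti-PD-1, and for Csf3r 1.12 (SE 0.43, adjusted p = 0.16).

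**Figure D3:**
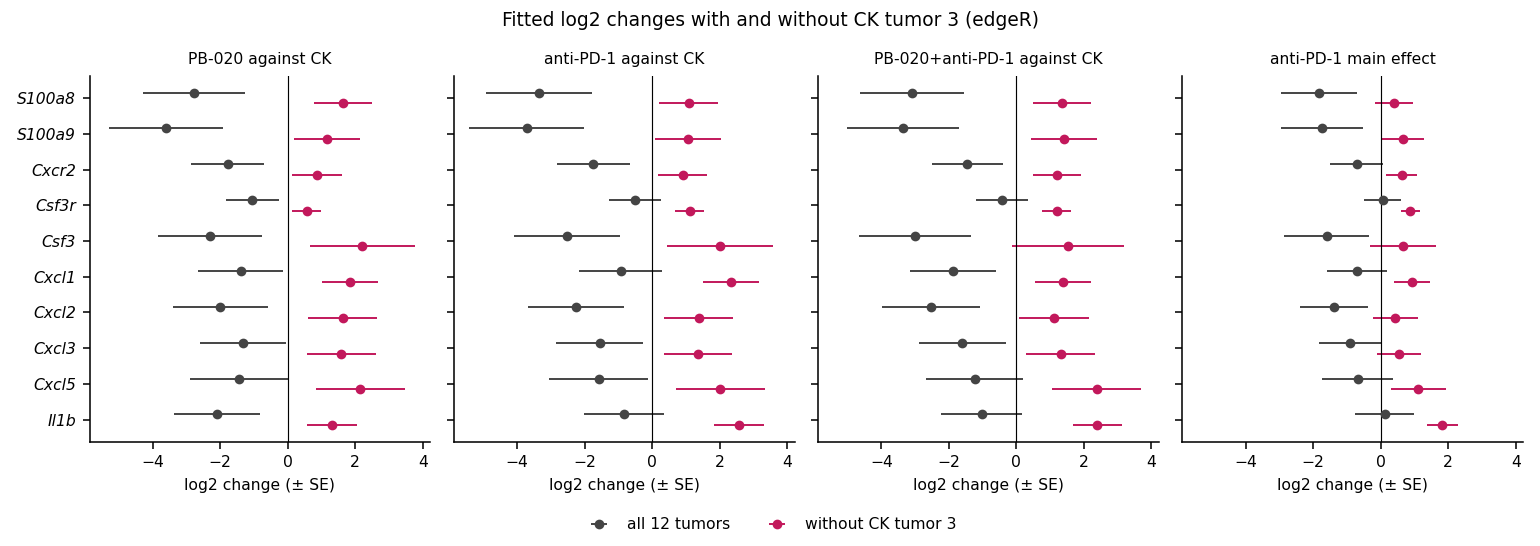
Fitted log2 changes of the 10 genes with their standard errors in 4 comparisons, from all 12 tumors (dark) and from the 11 tumors without CK tumor 3 (red). In the 3 comparisons with CK all 10 dark points lie below 0 and all 10 red points above 0.

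The effect of the antibody over both levels of PB-020 (the anti-PD-1 main effect, 6 tumors against 6) passed in 0 of the 10 genes with all 12 tumors in edgeR and in 0 of the 7 for which DESeq2 gave a p, also at an unadjusted p under 0.05, while 24.2% of all genes passed an adjusted p of 0.05 in edgeR and 37.9% an unadjusted one. Without CK tumor 3, the highest tumor for Il1b, that gene had a log2 change of 1.83 (SE 0.47, edgeR adjusted p = 0.030). It was 1 of the 10 genes, where 20.8% of all genes passed. At an unadjusted p under 0.05 there were 2 of the 10, Il1b and Csf3r, where 35.7% of all genes were. Il1b was higher in each of the 6 antibody tumors than in CK tumors 1 and 2, but PB-020 tumor 2 (14.4 FPKM) lay above 2 of the antibody tumors. Csf3r had a log2 change of 0.87 (SE 0.28, adjusted p = 0.055) and was called beside Il1b by DESeq2 under that setting (22.3% of all genes). When anti-PD-1 tumor 1, which held the most skeletal muscle RNA, was left out as well (21.2% of all genes passed), Il1b had a log2 change of 1.91 (SE 0.52, adjusted p = 0.047) and Csf3r of 0.67 (SE 0.26, adjusted p = 0.098). With all 12 tumors the values were 0.12 (SE 0.87, adjusted p = 0.94) for Il1b and 0.06 (SE 0.55, adjusted p = 0.95) for Csf3r. None of the 10 genes separated the 6 antibody tumors from the other 6 without overlap (4.09% of all genes did so upwards and 4.5% downwards), or from the other 5 without CK tumor 3 (5.46% and 5.16%).

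Adding PB-020 to the antibody, and the antibody to PB-020, were compared between treated groups, in the same fit over the 4 groups, so that the CK tumors entered the estimate of the spread. Of the 10 genes 0 passed for PB-020+anti-PD-1 against anti-PD-1 (0% of all genes) and 0 at an unadjusted p under 0.05 in edgeR (7.26% of all genes), with 0 of 7 in DESeq2, and the log2 changes were split evenly around 0, from -0.95 (SE 1.29) for Cxcl1 to 0.36 (SE 1.78) for S100a9. Against PB-020, 0 of the 10 passed (3.35% of all genes) and 0 at an unadjusted p under 0.05 in edgeR (22.4% of all genes), with 0 of 7 in DESeq2, and with values from -0.70 (SE 1.95) for Csf3 to 1.07 (SE 1.28) for Il1b. The PB-020 main effect and the interaction of the 2 treatments called 0 of the 10 genes in edgeR (0% of all genes in each), and 0 at an unadjusted p under 0.05 (10.9% and 2.29% of all genes). DESeq2 called 0 there as well, with 0 of its 7 at an unadjusted p under 0.05, though for the PB-020 main effect it gave an adjusted p for 1 gene only, Il1b. The standard errors of the 2 comparisons between treated groups ran from 0.78 for Csf3r to 1.99 for Csf3 on the log2 scale.

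With CK tumor 3 left out, these standard errors ran from 0.36 for Csf3r to 1.15 for Csf3, although that tumor is in neither comparison, so the precision with all 12 tumors was set in large part by the spread of 1 library. Of the 10 genes 0 passed in edgeR against anti-PD-1 (0% of all genes) or against PB-020 (2.73%), and 0 at an unadjusted p under 0.05 (6.92% and 22.1%), with 0 in DESeq2 as well. Il1b then had a log2 change of 1.08 (SE 0.58, adjusted p = 0.32) for the combination against PB-020, and Cxcl1 one of -0.95 (SE 0.66, adjusted p = 0.82) against anti-PD-1.

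The PB-020 main effect and the interaction changed sign with that tumor. With all 12 tumors all 10 PB-020 main effects were below 0, with a median of -1.14 (-0.015 over all genes), and without CK tumor 3 all 10 were above 0, with a median of 0.72 (-0.0095 over all genes). The 10 interactions were all above 0 with 12 tumors, with a median of 1.80, and all below 0 without CK tumor 3, with a median of -1.57. In edgeR 0 of the 10 genes passed in either (0% of all genes in each). At an unadjusted p under 0.05 there were 0 of 10 for the PB-020 main effect (9.34% of all genes) and 1 of 10 for the interaction (2.36%). That gene was Cxcl1, with an interaction of -2.80 on the log2 scale (SE 1.06, adjusted p = 0.9997), also under 0.05 unadjusted in DESeq2 (1.82% of all genes). DESeq2 called 0 of the 10 for the interaction, and for the PB-020 main effect 0, with an adjusted p for 1 gene only.

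Other neutrophil genes showed the same tumor. A list of 22 genes of the neutrophil surface or of mature neutrophils is named surface genes below, although some encode enzymes or secreted proteins. Of these 22, 17 passed the filter on low counts, and 12 of those were highest in CK tumor 3. Hdc, the histamine-forming enzyme, was at 10.4 FPKM there and at 0.47 to 1.69 FPKM elsewhere, and Clec4d, a C-type lectin receptor, at 31.2 against 9 to 29.0 FPKM. Hp, which encodes haptoglobin, was at 47.5 FPKM there and at 2.36 to 12.7 FPKM elsewhere. Of 14 granule genes 6 passed the filter, and 3 were highest there, Lcn2 (lipocalin-2) at 89.4 FPKM against 0.09 to 11.1 FPKM elsewhere, Mmp9 (a gelatinase) at 19.6 against 2.89 to 8.74 FPKM, and Retnlg at 23.7 against 0.53 to 4.42 FPKM. Secondary granule genes that are transcribed in precursors, Camp, Ngp and Ltf, stayed at 0.59 FPKM or below in all 12 tumors.

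With all 12 tumors, 0 of the 17 neutrophil surface genes and 0 of the 6 granule genes passed an adjusted p of 0.05 in edgeR for the anti-PD-1 main effect, and at an unadjusted p under 0.05 3 of the former were raised (18.9% of all genes) and 1 of the latter was lowered (19%). DESeq2 gave a p for 16 of the surface genes and called 2 raised (13.2% of all genes), and for 4 of the granule genes and called 1 lowered (12.2%). Without CK tumor 3, 9 of 18 surface genes tested had a raised main effect and 0 a lowered one in edgeR (10.8% of all genes raised). DESeq2 called 10 raised (12.1% of all genes). That tumor was the highest for 12 of the 17 surface genes above, so leaving it out moves the changes of those genes upward. The shares of all genes are therefore not a like background, and these counts are a description. Among them were Slfn4, Il1r2, Trem1, Ifitm6, Mcemp1, Clec4d, Clec4e and Fpr2. The formyl peptide receptor gene Fpr2 had a log2 change of 2.07 (SE 0.40, adjusted p = 0.0067), and Il1r2, the decoy receptor for interleukin-1, one of 1.30 (SE 0.21, adjusted p = 0.0022). Of the 6 granule genes 0 passed in that setting in edgeR, with 1 lowered at an unadjusted p under 0.05 (17.1% of all genes), and DESeq2 called 1, which was lowered (10.2%). When anti-PD-1 tumor 1 was left out as well, 8 of the 18 surface genes were raised (11.3% of all genes).

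Markers of other cell types moved with the antibody in the same fit, and several of the surface genes, among them Clec4d, Clec4e, Fpr2 and Trem1, are known to be expressed by monocytes or macrophages too. When CK tumor 3 was left out, 7 of 8 T cell genes, 2 of 7 dendritic cell genes and 2 of 12 monocyte and macrophage genes were raised (10.8% of all genes) and 0 of these lists lowered. The 2 of the last list were Ly6c2, a marker of inflammatory monocytes, with a log2 change of 2.19 (SE 0.33, adjusted p = 0.0038), and Fcgr1, an Fc receptor gene, with one of 0.60 (SE 0.10, adjusted p = 0.0029). Ly6c2 was at 5.25 and 4.03 FPKM in CK tumors 1 and 2, at 13.6 FPKM in CK tumor 3, and at 16.54 to 49.5 FPKM in the 6 antibody tumors. The T cell genes summed to 12.96 to 18.02 FPKM in CK, 19.0 to 24.5 FPKM in PB-020, 28.9 to 72.4 FPKM in anti-PD-1 and 34.9 to 56.9 FPKM in PB-020+anti-PD-1. The dendritic cell genes summed to 11.1 to 13.2, 10.1 to 13.5, 12.6 to 20.7 and 14.7 to 17.2 FPKM in the same order. Other lists went down in the fit without CK tumor 3, with 5 of 5 erythroid and 3 of 7 fibroblast genes lowered (9.98% of all genes). The surface antigen Ly6g did not exceed 0.08 FPKM in any of these 11 tumors. The part of these cell types in the change of the surface genes and of Il1b was not tested.

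Among 31 genes of neutrophil recruitment and its upstream signals, 28 passed the filter, 15 of them highest in CK tumor 3. In the anti-PD-1 main effect over all 12 tumors, 3 of the 28 were raised (11.8% of all genes) and 2 lowered (12.3%). The inflammatory caspase gene Casp1 rose by 0.53 on the log2 scale (SE 0.13, edgeR adjusted p = 0.013), Csf2rb2, a receptor subunit for interleukin-3, by 0.75 (SE 0.21, adjusted p = 0.031), and Csf1, a macrophage growth factor, by 0.23 (SE 0.07, adjusted p = 0.037). Il1r1, the signalling receptor for interleukin-1, had a log2 change of -0.32 (SE 0.08, adjusted p = 0.012) and its accessory chain Il1rap of -0.35 (SE 0.08, adjusted p = 0.011). Without CK tumor 3, 14 of the 28 were raised and 2 lowered, against 10.8% and 9.98% of all genes. Those raised included Il1rn, the natural antagonist of the interleukin-1 receptor, with a log2 change of 1.14 (SE 0.16, adjusted p = 0.0026), Il1a at 1.26 (SE 0.39, adjusted p = 0.049) and the chemokine gene Ccl4 at 1.60 (SE 0.23, adjusted p = 0.0017). Leaving out that tumor, the highest for 15 of the 28, moves the changes of those genes upward. The shift was not particular to the antibody. For PB-020 against CK, 8 of the 28 were raised at an unadjusted p under 0.05 in edgeR (4.52% of all genes in either direction) and 0 at an adjusted p. The interaction was lowered in 11 at an unadjusted p under 0.05 (2.36% of all genes in either direction) and in 0 at an adjusted p. The most abundant members of this list were Pf4, a platelet chemokine also made by macrophages, at 67 to 142 FPKM, and Nfkbia, an inhibitor of NF-κB, at 62.2 to 113 FPKM, both highest in CK tumor 3.

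Genes of other cell types did not all follow. Of 12 monocyte and macrophage genes 0 were highest in CK tumor 3, and their summed level was 1653 FPKM there, 1304 to 1339 FPKM in CK tumors 1 and 2, 1062 to 1296 FPKM in PB-020, 1092 to 2447 FPKM in anti-PD-1 and 1418 to 1604 FPKM in PB-020+anti-PD-1. None of 8 T cell, 7 dendritic cell, 2 colon epithelial, 9 keratinocyte, 10 skeletal muscle and 5 erythroid genes tested was highest there either, while 3 of 3 platelet, 4 of 5 endothelial, 2 of 7 fibroblast and 1 of 3 mast cell and basophil genes were. Skeletal muscle genes summed to 692 FPKM in anti-PD-1 tumor 1 and to 13.5 to 74.8 FPKM in the other 11 tumors.

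Adipocyte genes did move with CK tumor 3. In a list of 8 written after the genes highest in that tumor had been seen, 4 passed the filter and all 4 were highest there: Adipoq at 11.6 FPKM against 0 to 1.03 FPKM elsewhere, Cfd at 85.5 against 0 to 6.32 FPKM, Car3 at 68.2 against 1.03 to 25.4 FPKM, and Fabp4 at 179 against 28.4 to 62.1 FPKM. The summed level of the 8 was 359 FPKM in CK tumor 3, 45.8 and 50.1 FPKM in CK tumors 1 and 2, 52.3 to 69.6 FPKM in PB-020, 33.7 to 82.4 FPKM in anti-PD-1 and 30.2 to 67.6 FPKM in PB-020+anti-PD-1. Of the other 4, Plin1 (1.54 FPKM), Cidec (4.64 FPKM) and Retn (8.45 FPKM) were also highest in CK tumor 3, and Lep did not exceed 0.09 FPKM in any tumor. Whether fat tissue in the specimen had a part in the levels of the neutrophil genes was not tested.

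**Figure D4:**
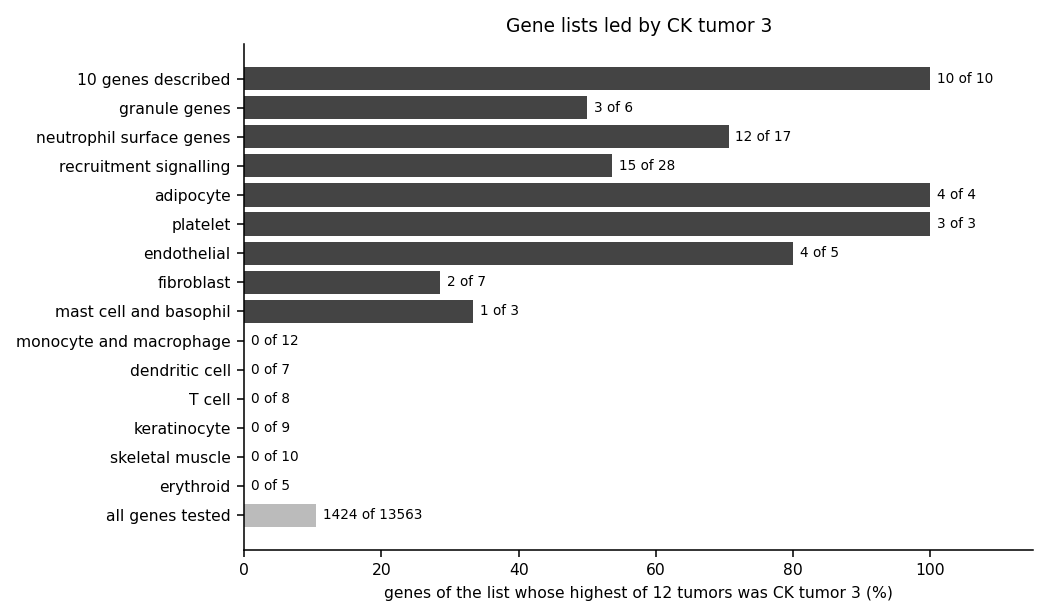
Share of the tested genes of each list whose highest value over the 12 tumors was that of CK tumor 3, in percent, with the counts beside each bar. The genes described here (10 of 10) and neutrophil surface genes (12 of 17) stand against 10.5% of all genes tested, and monocyte and macrophage genes are at 0 of 12. The neutrophil surface list also holds other genes of mature neutrophils. The adipocyte list (4 of 4) was written after the genes highest in that tumor had been seen, so its share is not comparable.

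The genes varied together across the tumors. Over the 45 pairs of the 10 genes, Pearson's r of log2 CPM lay between 0.73 and 0.99 with a median of 0.89, and without CK tumor 3 between 0.40 and 0.97 with a median of 0.76. Of these, 12 pairs were tested by permutation of the 12 tumors (100000 resamples, two-sided), and all 12 had an adjusted p under 0.05 for Pearson's r and 11 for Spearman's rho. These p-values take the 12 tumors as exchangeable, although they belong to 4 groups, and CK tumor 3 was the extreme point of each pair.

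S100a8 and S100a9 had r = 0.99 (permutation adjusted p = 0.00012) and rho = 0.92 (permutation adjusted p = 0.00072), with r = 0.95 after leaving out the 2 tumors farthest from the median of S100a8. Cxcl2 and Cxcl3 had r = 0.98 (permutation adjusted p = 0.00012) and rho = 0.99 (permutation adjusted p = 0.00024), with r = 0.97 without the 2 farthest tumors. For the ligand Cxcl2 and its receptor Cxcr2, r was 0.92 (permutation adjusted p = 0.0010) and rho 0.80 (permutation adjusted p = 0.0036), with r = 0.75 without the 2 farthest tumors. The growth factor Csf3 and its receptor Csf3r had the weakest relation of the 12, with r = 0.75 (permutation adjusted p = 0.017), rho = 0.55 (permutation adjusted p = 0.070) and r = 0.45 without the 2 farthest tumors, so that relation rested on those tumors. Il1b and Cxcl2 had r = 0.77 (permutation adjusted p = 0.0070) and rho = 0.71 (permutation adjusted p = 0.014), with r = 0.60 without the 2 farthest. Within groups, where each tumor is taken relative to its group mean, r was 0.92 with CK tumor 3 included. Without CK tumor 3, r was 0.56, with group means not removed.

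**Figure D5:**
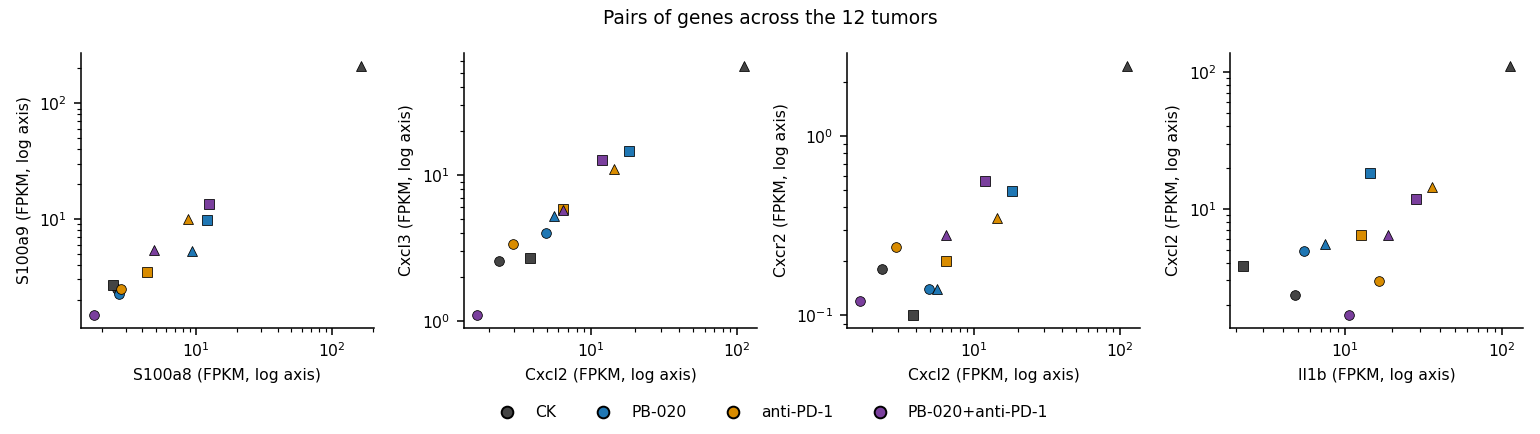
Levels of 4 pairs of genes in the 12 tumors, in FPKM on log axes, with groups in color and tumor numbers 1, 2 and 3 as circles, squares and triangles. CK tumor 3 is at the top right of each panel; the other 11 tumors line up closely for S100a8 and S100a9 and for Cxcl2 and Cxcl3, and more loosely for Il1b and Cxcl2.

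As a description, the genes outside the 10 whose log2 CPM was most like that of S100a9 over the 12 tumors, among 12748 genes ranked, were Hdc (r = 0.98), Lcn2 (0.94), Saa3 (0.93), Zc3h12a (0.93) and Il1f9 (0.92). Most like Cxcl2 were Lcn2 (0.99), Zc3h12a (0.93), Saa3 (0.93), Hdc (0.92) and Ccl3 (0.88). Saa3, an acute phase protein gene, was at 258 FPKM in CK tumor 3 and at most 37.1 FPKM elsewhere, and Zc3h12a, which encodes a nuclease that degrades inflammatory mRNAs, at 17.6 and at most 10.6 FPKM. Without CK tumor 3, Hdc remained first for S100a9 (r = 0.92) and Lcn2 first for Cxcl2 (r = 0.97). The tumors in these correlations share their library depth range and the extreme value of 1 tumor, and no p is attached to them.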

How the data were processed

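The 12 libraries were grouped, with their tumor numbers, by the sample labels. Doses and days were those of the study's methods. The authors sequenced pairs of 150 bases, aligned them with Bowtie2 and quantified genes with RSEM. The submitters' processing notes also name HISAT, and the genome build GRCm38.p6. The authors deposited RSEM expected counts (estimated, not normalized), of which 91.0% were whole within 0.005. They also deposited FPKM, scaled for gene length and library total, and TPM, which were not used for the results. The authors' averages per group, 12 columns, were not used. NCBI gene numbers matched RefSeq for 18091 of 18211 genes.

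Counts were rounded and tested with edgeR 4.0.16 (R 4.3.3; TMM scaling, filterByExpr with a minimum count of 10, quasi-likelihood F test, Benjamini-Hochberg adjustment over all 13563 genes, 1 fit over the 4 groups), after a test on simulated data in which 40 of 67 genes changed 1.5-fold, 50 of 67 changed 2-fold and 64 of 66 changed 4-fold were called for PB-020+anti-PD-1 against CK over 13563 genes. All 10 genes passed the filter. The simulation gave each gene the spread typical of its level and held no outlying tumor. The coefficient of variation between tumors in edgeR was 0.63 to 1.33 for the 10 genes, against a median of 0.099 over all genes tested. The simulated shares therefore do not apply to the 10 genes. Alternatives were DESeq2 1.42.0, limma 3.58.1 on log2(FPKM + 1) or log2(FPKM + 0.1), library size scaling, other filters, only the groups compared, a replicate block, and each tumor left out. Log2 CPM used a prior count of 2. Floors of 3 counts and count ratios cover counting error only, and depth makes values under about 10 counts imprecise.

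The run shared by the chemokine promoters is reported after looser NF-κB spellings had been looked at in the same promoters. Tumors of a group were taken as separate animals, as the labels number them, and p-values measure the spread between these samples. The same number in different groups did not mark related tumors (correlation of deviations from group means -0.21 to 0.29, median -0.04, over 18 same-numbered pairs). No batch is named in the sources used here. The genes, the gene lists and the tests were chosen with earlier results of these data known. Named genes were the 10 genes, genes of each neutrophil or recruitment list past an adjusted p of 0.05 in the anti-PD-1 main effect or a comparison with CK, the 2 of highest mean FPKM in each list, and the 5 most like S100a9 and Cxcl2. Other genes were named after their values were seen. One gene that the rule names is not reported here. The table of promoter sequences has no entry used here for Csf3 and Cxcl5.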

Additional observations from a re-analysis of the deposited data

How the results depend on the processing

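Leaving out each tumor in turn, the fitted log2 changes ranged, for PB-020 against CK, from -3.35 to 1.65 for S100a8, -4.24 to 1.16 for S100a9, -2.62 to 0.87 for Cxcr2, -1.47 to 0.57 for Csf3r, -4.50 to 2.21 for Csf3, -1.94 to 1.85 for Cxcl1, -2.86 to 1.63 for Cxcl2, -2.10 to 1.59 for Cxcl3, -3.08 to 2.15 for Cxcl5 and -2.65 to 1.32 for Il1b. For anti-PD-1 against CK the ranges were -3.91 to 1.09 for S100a8, -4.56 to 1.05 for S100a9, -2.27 to 0.91 for Cxcr2, -0.92 to 1.12 for Csf3r, -3.98 to 2.01 for Csf3, -2.07 to 2.33 for Cxcl1, -3.02 to 1.38 for Cxcl2, -2.10 to 1.36 for Cxcl3, -2.17 to 2.02 for Cxcl5 and -1.41 to 2.58 for Il1b. Those for PB-020+anti-PD-1 against CK were -4.05 to 1.35 for S100a8, -4.37 to 1.42 for S100a9, -2.12 to 1.20 for Cxcr2, -0.85 to 1.20 for Csf3r, -3.97 to 1.52 for Csf3, -2.43 to 1.38 for Cxcl1, -3.24 to 1.12 for Cxcl2, -2.54 to 1.31 for Cxcl3, -1.78 to 2.38 for Cxcl5 and -1.58 to 2.40 for Il1b. In these 3 comparisons the sign changed without CK tumor 3 and with no other tumor left out. For the anti-PD-1 main effect the ranges were -2.31 to 0.40 for S100a8, -2.24 to 0.66 for S100a9, -1.04 to 0.62 for Cxcr2, -0.15 to 0.87 for Csf3r, -2.34 to 0.66 for Csf3, -1.27 to 0.93 for Cxcl1, -1.76 to 0.44 for Cxcl2, -1.38 to 0.54 for Cxcl3, -0.98 to 1.12 for Cxcl5 and -0.17 to 1.83 for Il1b. There the sign changed without CK tumor 3 for 8 genes, for Cxcl5 also without PB-020 tumor 2, and for Csf3r and Il1b, which were near 0 with all tumors, without CK tumor 1, CK tumor 2 or PB-020+anti-PD-1 tumor 2, without anti-PD-1 tumor 1 (Csf3r), and without PB-020 tumor 1 or anti-PD-1 tumor 3 (Il1b). The count of the 10 genes called in that main effect lay between 0 and 1 over these fits, with Il1b called without CK tumor 3 (adjusted p = 0.030). Alternatives chosen after seeing the data left out CK tumor 3: DESeq2 then called 3 genes for anti-PD-1, 2 for the combination and 2 in the main effect, limma on log2(FPKM + 1) called 1 in the main effect, and edgeR without anti-PD-1 tumor 1 as well called 1.

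With all 12 tumors, the counts of the 10 genes called stayed at 0 in every comparison under DESeq2 (which gave no p for S100a8, S100a9 and Csf3), limma, library size scaling, no filter, the stricter filter, only the groups compared and the replicate block. Fitted signs changed 13 times, all in limma on log2 FPKM, and the cause was not tested. With a pseudocount of 1 and of 0.1, the values were 0.0036 and 0.20 for Cxcl1 with PB-020, 0.13 and 0.32 for Cxcl1 with anti-PD-1, 0.68 and 0.85 for Il1b with anti-PD-1, 0.040 and 0.15 for Csf3r with the combination, and 0.55 and 0.71 for Il1b with the combination. With 0.1 alone they were 0.080 for Csf3r with anti-PD-1, 0.083 for Cxcl5 with the combination and 0.13 for Cxcl5 in the main effect. With the replicate block, that is the tumor number as a term, 0 of the 10 genes were called and Il1b had a log2 change of 0.45 in the anti-PD-1 main effect (adjusted p = 0.74). The median pooled SD was 1.42 on log2(FPKM + 1), and 12 pairs of 12 passed there as well.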

Other observations

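The 43 genes in which CK tumor 3 exceeded every other tumor by more than 2-fold held further inflammatory genes beside the 10 described above. The interleukin-1 family genes Il1a and Il1f9 were at 24.0 and 7.5 FPKM in that tumor, against at most 6.89 and 1.82 FPKM in the other 11. Il6 was at 3.45 FPKM against at most 1.61 FPKM, Osm, which encodes oncostatin M, at 6.63 against at most 2.88 FPKM, and the niacin receptor gene Hcar2 at 22.7 against at most 7.68 FPKM. The macrophage chemokine gene Ccl3 was at 123 FPKM against at most 42.2 FPKM. Mmp3, a stromal protease gene, was at 56.9 against at most 20.2 FPKM, and Slpi, a protease inhibitor gene, at 16.2 against at most 2.89 FPKM. These genes were named after their values were seen.

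The next highest tumor for the genes described in the report, after CK tumor 3, was PB-020 tumor 2 for Csf3, Cxcl2, Cxcl3 and Cxcl5, PB-020+anti-PD-1 tumor 2 for S100a8, S100a9 and Cxcr2, anti-PD-1 tumor 3 for Cxcl1 and Il1b, and anti-PD-1 tumor 1 for Csf3r.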
